A study of Mus musculus with 6 samples.

Results

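Cholesterol synthesis, uptake and efflux was examined as a set of 32 named genes in the liver of mice heterozygous for Ptprd. Every one of the 32 symbols matched exactly 1 row of a table of 25904 genes, and all 32 passed the filter on low counts that left 14606 genes. The study compared livers of C57BL/6J mice of genotype Ptprd+/+ (WT, 3 samples) with livers of Ptprd+/- mice (heterozygous, Het, 3 samples). Ptprd encodes a receptor-type protein tyrosine phosphatase. Both groups share the strain and the tissue, and no treatment is named for either. The sources used here do not give the kind of altered allele, the hour of collection, or the diet, age and sex of the mice. Polyadenylated RNA was sequenced from strand-specific libraries, and total counts ran from 37924266 to 72954187 per library.

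Hepatocytes make cholesterol from acetyl-CoA in a first stretch that leads through mevalonate to farnesyl diphosphate, and a second stretch that builds squalene, closes it to lanosterol and trims that sterol to cholesterol. When sterol in the endoplasmic reticulum is low, the SREBP2 transcription factor, which often acts beside NF-Y, raises the genes of both stretches together. Hepatocytes also take cholesterol up from lipoproteins, free it in lysosomes, store it as esters, return it to lipoproteins and secrete it into bile, and the oxysterol receptors LXR raise several of the efflux genes. The genes were grouped by these steps: 9 of the mevalonate stretch, 11 of the sterol stretch, 7 of uptake and lysosomal release, 3 of efflux and 2 of esterification.

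Ptprd was 128, 127 and 132 CPM in WT 1, 2 and 3 and 54.1, 78.1 and 63.4 CPM in Het 1, 2 and 3 (CPM, the count relative to the library's TMM-scaled total), so each library's level went with its genotype label. Its log2 fold change was -0.99 (SE 0.14), with an adjusted p of 0.298 by edgeR's quasi-likelihood test and of 2.01e-06 by DESeq2. Hepatocyte markers listed for the check (Alb, Ttr, Apoa1, Serpina1a, Tat and Cps1) summed to 119597 to 143094 CPM in WT and 142644 to 174729 CPM in Het. Most of each sum was Alb, at group means of 108968 CPM in WT and 127897 CPM in Het. Alb, Ttr, Apoa1 and Serpina1a had higher means in Het, while Tat (log2 fold change -0.13) and Cps1 (-0.26) had lower means. The 6 Kupffer cell markers summed to 338 to 531 CPM in WT and 243 to 451 CPM in Het, and markers of exocrine pancreas, fat and adrenal cortex summed to at most 3.64 CPM per list in any library. Clock genes divided the Het samples. A clock score, the mean log2 CPM of Dbp, Per2, Per3, Nr1d1, Nr1d2 and Tef minus that of Arntl, Npas2, Clock and Cry1, was 1.36, 2.64 and 1.22 in WT 1, 2 and 3, while Het 1 scored 0.708, Het 2 4.99 and Het 3 5.20.

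Most enzymes of cholesterol synthesis were low in Het 3, many were low in Het 1, and most were within or above the WT range in Het 2, while genes of uptake, efflux and storage differed less in their means. The largest difference among the 32 genes was in Pmvk, 1.75-fold lower in Het with no overlap between genotypes. Of the 32 genes, 27 had a lower mean level in Het by the sign of the fitted fold change, where 50.8% of all tested genes did. The count was 21 without WT 1, 24 without WT 2 or without Het 1, 26 without Het 2 and 27 without WT 3. The count without Het 3 is not given here. In that fit some signs turned, among them Fdft1 (0.14), Sqle (0.14) and Msmo1 (0.15) to higher and Stard4 (-0.10) to lower. The genes were measured in the same libraries and are not replicates, and some of these fold changes were near 0. By edgeR's quasi-likelihood test 0 of the 32 passed an adjusted p of 0.05, and 0% of all tested genes did. At an unadjusted p under 0.05, 3 of the 32 were lower (Pmvk, Tm7sf2 and Lipa) against 3.77% of all genes, and 0 were higher against 3.39%. With limma-voom these counts were 2 lower and 0 higher, against 4.01% and 3.33% of all genes, and with DESeq2 6 lower and 0 higher, against 3.77% and 3.02%. In both directions together 7.15% of all genes had an unadjusted p under 0.05 by edgeR and 6.79% by DESeq2. DESeq2 gave 0 of the 32 an adjusted p under 0.05, where it called 0.511% of the genes to which it gave one. The genotypes were separated, every Het library lower than every WT library, in 2 of the 32 (Pmvk and Ggps1), where 6.72% of all genes were, and every one higher in 1 (Soat2), where 7.15% were. The separated genes are no larger a share of the set than of all genes. For a single gene, 3 libraries against 3 cannot give a two-sided exact permutation p below 0.1.

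**Figure D1:**
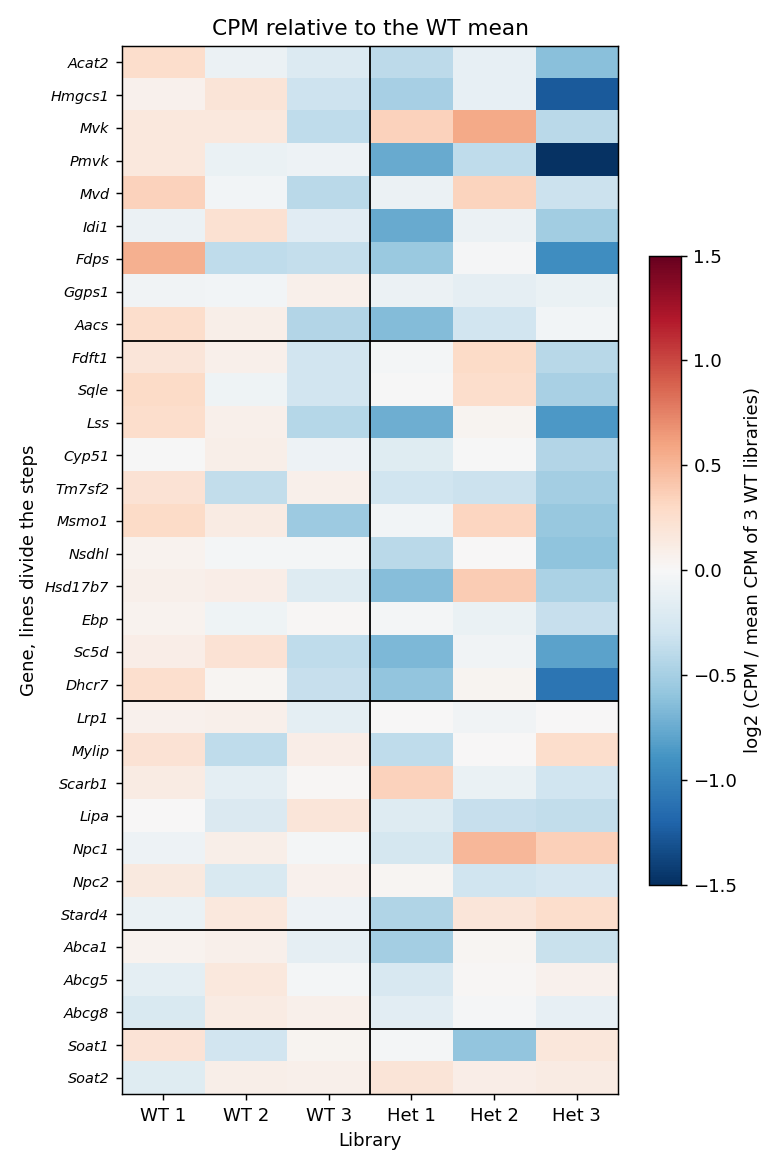
Colour shows log2 of each library's CPM over the mean CPM of the 3 WT libraries, with 1 row per gene and black lines between the steps. The column of Het 3 is blue in all 11 rows of the sterol stretch, while that of Het 2 lies near the WT columns.

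The median log2 fold change was -0.37 over the 9 mevalonate genes and -0.20 over the 11 sterol genes. It was -0.0092 for uptake and lysosomal release, -0.10 for efflux and 0.016 for esterification, and -0.0039 over all tested genes. Of the 20 synthesis genes 19 were lower in the fit, and of the other 12 genes 8 were lower, where 50.8% of all tested genes were. Among the 19, Mvd (-0.0012), Fdft1 (-0.022), Sqle (-0.044) and Msmo1 (-0.053) were near 0 and changed sign with 1 library left out, as did Hsd17b7 (-0.17). A difference between the steps was not tested. With 1 library left out the mevalonate median ran from -0.51 without Het 2 to -0.15 without WT 1, and the sterol median from -0.39 without Het 2 to -0.093 without Het 3. The efflux median ran from -0.20 without WT 1 to -0.028 without WT 2. The medians of the other steps had no stable sign: uptake and lysosomal release turned positive without WT 1 (0.024) and was -0.10 without Het 3, while esterification was -0.020 without WT 2, -0.025 without Het 1, -0.065 without Het 3 and 0.12 without Het 2.

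**Figure D2:**
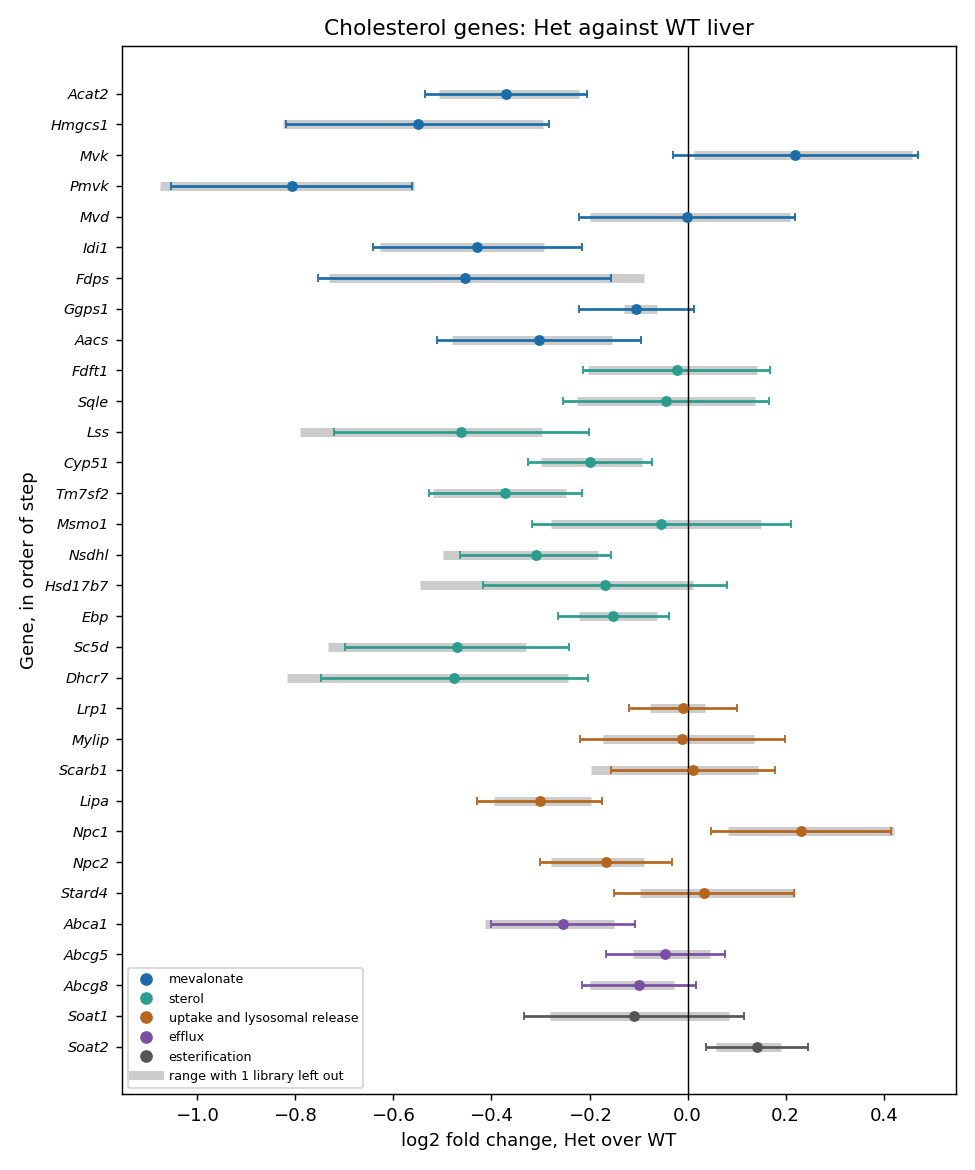
Points are log2 fold changes of Het over WT with the standard error, coloured by step, and grey bars span the values with any 1 library left out. Pmvk lies farthest to the left at -0.81, and the uptake, efflux and esterification genes lie between -0.30 and 0.23.

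The mevalonate stretch starts with Acat2, the cytosolic thiolase that joins acetyl-CoA units. It had 81.0, 63.6 and 58.5 CPM in WT 1, 2 and 3 and 51.5, 62.2 and 43.7 CPM in Het 1, 2 and 3, 1.29-fold lower in Het. Het 2 fell inside the WT range. Of its 50-base stretches, 39.1% also occur in transcripts of the neighbouring copy Acat3, so its counts are uncertain. Hmgcs1, the cytosolic HMG-CoA synthase (ENSMUSG00000093930, chromosome 13, 119690379 to 119708260, mm10), had 456, 497 and 351 CPM in WT 1, 2 and 3 and 309, 401 and 182 CPM in Het 1, 2 and 3. Het 3 was lowest of the 6 and Het 2 lay within the WT range, and the log2 fold change was -0.55 (SE 0.27), with an adjusted p of 0.705 by edgeR.

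Pmvk, phosphomevalonate kinase (ENSMUSG00000027952, chromosome 3, 89454541 to 89469013, mm10), acts on the product of mevalonate kinase. It had 124, 103 and 105 CPM in WT 1, 2 and 3 and 65.3, 84.8 and 39.4 CPM in Het 1, 2 and 3. Its genotypes did not overlap, and the highest Het library was Het 2. Means were 110.5 ± 11.3 CPM for WT and 63.2 ± 22.8 CPM for Het (SD, n = 3 each). The log2 fold change was -0.81 (SE 0.25), with an unadjusted p of 0.0106 by edgeR. Its adjusted p was 0.673 by edgeR and 0.124 by DESeq2. With 1 library left out in turn the log2 fold change ran from -1.08 to -0.56, lowest without Het 2 and highest without Het 3. No 50-base stretch of its transcripts occurs in a transcript of another annotated gene.

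The kinase just before it and the decarboxylase just after it had smaller differences. Mvk, mevalonate kinase, had 28.7, 28.5 and 19.6 CPM in WT 1, 2 and 3 and 32.5, 37.9 and 19.3 CPM in Het 1, 2 and 3, with Het 1 and Het 2 above all WT libraries and Het 3 below them, and a log2 fold change of 0.22 (SE 0.25). Mvd, mevalonate diphosphate decarboxylase, had 40.9, 31.3 and 24.2 CPM in WT 1, 2 and 3 and 30.1, 40.5 and 25.8 CPM in Het 1, 2 and 3. Its genotypes overlapped fully and its log2 fold change was -0.0012 (SE 0.22). The differences between Pmvk and its neighbours in the pathway were not tested against each other.

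Idi1, isopentenyl diphosphate isomerase, was low at 3.51 to 4.73 CPM in group means and had a log2 fold change of -0.43 (SE 0.21). Annotated pseudogenes and other genes share 17.7% of its 50-base stretches, and 26.2% of those of Fdps, farnesyl diphosphate synthase, so the levels of both are uncertain. For Fdps the gene sharing most is Gm43738, whose exons overlap 26.7% of the exon bases of Fdps on the same strand. Fdps had 43.0, 22.8 and 23.2 CPM in WT 1, 2 and 3 and 20.2, 29.3 and 15.5 CPM in Het 1, 2 and 3, with WT 1 far above the other libraries, and its log2 fold change of -0.45 was -0.088 without WT 1. Ggps1, which makes geranylgeranyl diphosphate for protein prenylation, had 8.16, 8.24 and 8.94 CPM in WT 1, 2 and 3 and 7.95, 7.71 and 7.90 CPM in Het 1, 2 and 3. The groups did not overlap, but the difference was small, at a log2 fold change of -0.10 (SE 0.12). Aacs, acetoacetyl-CoA synthetase, which feeds ketone bodies into the pathway, had 218, 194 and 134 CPM in WT 1, 2 and 3 and 116, 149 and 177 CPM in Het 1, 2 and 3, with Het 3 inside the WT range and Het 1 lowest, and a log2 fold change of -0.30 (SE 0.21).

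In the sterol stretch Het 3 lay below all 3 WT libraries in all 11 genes, where 27.3% of all tested genes did so in that library. Het 1 lay below them in 6 of the 11, where 32.4% of all genes did. Het 2 lay below them in 1, Ebp, within their range in 7 and above them in 3, where 27.2%, 46.3% and 26.5% of all genes did. Fdft1, squalene synthase, which commits farnesyl diphosphate to sterols, had 123, 114 and 88.7 CPM in WT 1, 2 and 3 and 107, 132 and 81.5 CPM in Het 1, 2 and 3. Sqle, squalene epoxidase, had 136, 106 and 91.1 CPM in WT 1, 2 and 3 and 111, 134 and 79.2 CPM in Het 1, 2 and 3. In both, Het 2 was among the highest libraries, Het 3 was lowest, and the mean difference was small, with log2 fold changes of -0.022 (SE 0.19) and -0.044 (SE 0.21). Of the exon bases of Fdft1, 18.3% lie opposite exons of Ctsb on the other strand. Since the strand setting of the counting is not given, reads of the 2 genes there may not have been told apart. The same limit applies to 12.1% of the exon bases of Hmgcs1 and 9.2% of those of Idi1. It applies to smaller shares, 2.2% to 5.4%, of Ggps1, Npc1, Cyp51, Lss, Abcg5 and Abcg8, the last 2 opposite each other.

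Lss, lanosterol synthase, which closes the sterol rings, had 138, 121 and 85.1 CPM in WT 1, 2 and 3 and 69.0, 117 and 63.2 CPM in Het 1, 2 and 3, 1.38-fold lower in Het with Het 2 within the WT range. Cyp51, the lanosterol demethylase, varied less, from 155 CPM in Het 3 to 222 CPM in WT 2. Tm7sf2, a sterol reductase (ENSMUSG00000024799, chromosome 19, 6062821 to 6068373, mm10), had 235, 156 and 213 CPM in WT 1, 2 and 3 and 164, 161 and 141 CPM in Het 1, 2 and 3. WT 2 fell among the Het libraries, which were close to each other. Its log2 fold change was -0.37 (SE 0.16), with an unadjusted p of 0.0442 and an adjusted p of 0.694 by edgeR. Of its annotated exon bases 12.1% overlap exons of Vps51 on the same strand, so some reads cannot be assigned between them.

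Methyl groups are next removed by Msmo1, Nsdhl and Hsd17b7. Msmo1, the methylsterol monooxygenase, had 212, 189 and 118 CPM in WT 1, 2 and 3 and 168, 216 and 117 CPM in Het 1, 2 and 3, so that WT 3 and Het 3 shared the lowest level and the mean difference was small (log2 fold change -0.053, SE 0.26). Nsdhl, the sterol dehydrogenase, had 125, 117 and 118 CPM in WT 1, 2 and 3 and 90.5, 121 and 79.0 CPM in Het 1, 2 and 3, with a narrow WT range and Het 1 and Het 3 below it. Hsd17b7, the ketosteroid reductase of this step, had 81.3, 82.7 and 67.9 CPM in WT 1, 2 and 3 and 49.8, 101 and 55.8 CPM in Het 1, 2 and 3, so Het 2 was the highest library and the other Het libraries the lowest.

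The closing reactions belong to Ebp, Sc5d and Dhcr7. Ebp, the sterol isomerase, varied least of the stretch, from 241 to 317 CPM. Sc5d, lathosterol oxidase, had 729, 795 and 526 CPM in WT 1, 2 and 3 and 428, 659 and 392 CPM in Het 1, 2 and 3, and Dhcr7, the reductase that yields cholesterol, had 158, 135 and 104 CPM in WT 1, 2 and 3 and 88.0, 136 and 62.0 CPM in Het 1, 2 and 3. Both were lower in Het 1 and Het 3 than in any WT library, with Het 2 within the WT range, and had log2 fold changes of -0.47 (SE 0.23) and -0.48 (SE 0.27). Their adjusted p values by edgeR were 0.704 and 0.728.

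Each gene's log2 CPM was centred on its average of the 6 libraries, and the median over the genes of a step was taken as that step's level in a library. For the mevalonate stretch it was 0.39, 0.11 and -0.011 in WT 1, 2 and 3 and -0.20, 0.14 and -0.43 in Het 1, 2 and 3. For the sterol stretch it was 0.34, 0.19 and -0.065 in WT 1, 2 and 3 and -0.10, 0.31 and -0.44 in Het 1, 2 and 3. Het 3 was lowest and WT 1 highest in both, and Het 2 stood among the WT libraries. Among the 20 synthesis genes the lowest library was Het 3 in 15, and the highest was WT 1 in 11. Het 2 and Het 3, which share a high clock score, stood at 0.31 and -0.44 in the sterol stretch, while Het 1, with the lowest clock score, stood at -0.10. With the clock score as a covariate the median log2 fold change was -0.44 for the mevalonate stretch and -0.26 for the sterol stretch. The part of collection time in these levels was not tested.

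**Figure D3:**
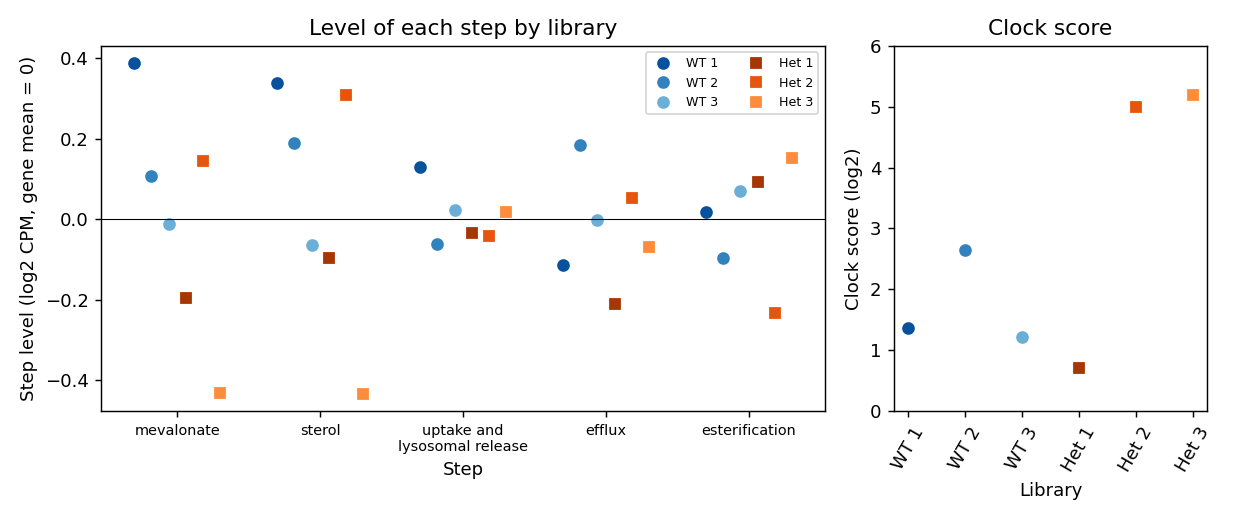
Left, the level of each step in each library as log2 CPM with each gene's mean set to 0; right, the clock score of each library in log2 units. Het 3 is lowest and Het 2 lies between WT 2 and WT 1 in the mevalonate and sterol steps, with clock scores of 4.99 in Het 2 and 5.20 in Het 3.

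Because of this split among the Het libraries, the count of separated genes depended on which library was in the comparison. Without Het 2, 13 of the 32 genes (40.6%), 12 of them synthesis genes, lay lower in both remaining Het libraries than in every WT library, where 13.7% of all genes did. Without Het 3 the count was 2 against 12.9% of all genes, and without Het 1 it was 5 against 11.3%. Without WT 3, the lowest WT library for synthesis genes, it was 11 against 12.2%, without WT 2 it was 6 against 10% and without WT 1 it was 3 against 10.7%. Leaving out Het 2 removes the library that overlapped WT, so the larger count describes Het 1 and Het 3 and not the Het group as a whole. Which Het libraries reflect the genotype was not tested.

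Levels were compared between genes only per kilobase of annotated exon, as CPM per kb in WT (mean ± SD, n = 3). Sc5d stood highest at 140.4 ± 28.8, followed by Ebp at 133 ± 5.31, whose spread overlapped it, then Hmgcs1 at 94.7 ± 16.5 and Pmvk at 64.5 ± 6.60. The kinases and decarboxylase around Pmvk were lower, with Mvk at 9.57 ± 1.93 and Mvd at 17.3 ± 4.50. Soat1 stood lowest at 0.601 ± 0.102, below Soat2 at 17.1 ± 1.74.

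Promoter sequence was looked up for the genes because the synthesis enzymes are known to share regulation by SREBP2 and NF-Y. Of the 32 genes 25 had an entry in the RefSeq promoter table (GRCm38.p6), and the 250 bases before the outermost start of each were searched on both strands. The NF-Y box CCAAT occurred in 18 of the 25 (72.0%), in 14 of 17 synthesis genes and in 4 of 8 others. It occurred in 34.5% of all 27026 promoters of that length and in 36.3% of the 10777 whose symbol was tested here. The SREBP element TCACNCCAC occurred in 1 of the 25, Hmgcs1, and in 1.03% of all promoters. The windows of 5 enzymes are given 5′ to 3′ with matches to either motif on either strand in capitals. They were chosen to set the 3 genes with the largest fold changes among those with an entry (Pmvk chr3:89454291-89454540, Hmgcs1 chr13:119690101-119690350 and Dhcr7 chr7:143822917-143823166, all on the plus strand) beside 2 with other patterns (Mvk chr5:114444019-114444268 on the plus strand and Msmo1 chr8:64733579-64733828 on the minus strand).
Pmvk: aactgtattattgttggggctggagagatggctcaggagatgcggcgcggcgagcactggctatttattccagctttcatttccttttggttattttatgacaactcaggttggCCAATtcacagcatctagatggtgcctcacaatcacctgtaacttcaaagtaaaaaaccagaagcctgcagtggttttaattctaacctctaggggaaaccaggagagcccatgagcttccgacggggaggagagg
Hmgcs1: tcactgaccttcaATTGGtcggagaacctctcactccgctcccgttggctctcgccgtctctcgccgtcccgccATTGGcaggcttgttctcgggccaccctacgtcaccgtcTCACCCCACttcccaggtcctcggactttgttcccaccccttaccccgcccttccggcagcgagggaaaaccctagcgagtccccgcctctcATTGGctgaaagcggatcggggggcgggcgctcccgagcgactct
Dhcr7: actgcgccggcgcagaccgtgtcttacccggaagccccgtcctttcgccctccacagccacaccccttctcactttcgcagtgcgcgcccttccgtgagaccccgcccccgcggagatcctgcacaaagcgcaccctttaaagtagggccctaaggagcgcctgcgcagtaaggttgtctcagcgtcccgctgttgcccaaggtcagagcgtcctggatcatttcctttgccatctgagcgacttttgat
Mvk: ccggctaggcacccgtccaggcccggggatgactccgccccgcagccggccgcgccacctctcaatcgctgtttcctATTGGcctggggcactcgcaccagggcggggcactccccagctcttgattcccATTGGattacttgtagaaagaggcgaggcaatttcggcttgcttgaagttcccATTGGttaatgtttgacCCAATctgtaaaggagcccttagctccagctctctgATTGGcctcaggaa
Msmo1: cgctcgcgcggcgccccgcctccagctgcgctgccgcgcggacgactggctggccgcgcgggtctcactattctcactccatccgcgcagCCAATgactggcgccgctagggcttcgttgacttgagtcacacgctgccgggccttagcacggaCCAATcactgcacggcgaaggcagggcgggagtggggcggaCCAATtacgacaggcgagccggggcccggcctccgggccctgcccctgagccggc
Mvk holds 5 NF-Y boxes, Hmgcs1 and Msmo1 hold 3 each, Pmvk holds 1 and Dhcr7 holds 0. A match, or its absence, describes letters in the window only.

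The 7 listed genes of uptake and lysosomal release had log2 fold changes from -0.30 (Lipa) to 0.23 (Npc1). Mean differences were small in Lrp1, Scarb1, Mylip and Stard4. Lrp1, an endocytic receptor that clears lipoprotein remnants, had 863, 868 and 744 CPM in WT 1, 2 and 3 and 831, 797 and 831 CPM in Het 1, 2 and 3, a log2 fold change of -0.0092 (SE 0.11). Scarb1, the receptor for high-density lipoprotein, had 144, 119.6 and 134 CPM in WT 1, 2 and 3 and 168, 124 and 108 CPM in Het 1, 2 and 3, with both the highest and the lowest library in Het. Mylip, a ubiquitin ligase that sends lipoprotein receptors to degradation, was low, at 9.78 ± 2.00 CPM for WT and 9.67 ± 2.11 CPM for Het (SD, n = 3).

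Lipa, lysosomal acid lipase (ENSMUSG00000024781, chromosome 19, 34492318 to 34527474, mm10), frees cholesterol from the esters of lipoproteins. It had 358, 307 and 406 CPM in WT 1, 2 and 3 and 313, 280.1 and 277 CPM in Het 1, 2 and 3. Het 1 lay just above WT 2 and the other Het libraries lay below all WT libraries. Its log2 fold change was -0.30 (SE 0.13), 1.23-fold lower, with an unadjusted p of 0.0452 and an adjusted p of 0.694 by edgeR. Lipa is expressed in macrophages as well as hepatocytes, and the summed Kupffer markers above were lower at both ends of their range in Het. Of these 6 markers Marco differed most, at 72.4 and 25.4 CPM in group means of WT and Het, while Clec4f was higher in Het, at 129.5 and 139 CPM, and the other 4 had lower means in Het. Their part in the difference was not tested, and in bulk tissue fewer cells of a type and less RNA per cell cannot be told apart.

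Npc1 and Npc2, which carry cholesterol out of the lysosome, had fitted fold changes of opposite sign, and the genotypes overlapped in both. Npc1 had 107, 119.9 and 111 CPM in WT 1, 2 and 3 and 93.4, 158 and 144 CPM in Het 1, 2 and 3, with Het 2 and Het 3 above all WT libraries and Het 1 below them. Npc2 had 121, 93.7 and 114 CPM in WT 1, 2 and 3 and 112, 89.5 and 92.2 CPM in Het 1, 2 and 3, with Het 1 within the WT range. Their log2 fold changes were 0.23 (SE 0.18) and -0.17 (SE 0.13). Stard4, a cytosolic sterol carrier, had 112, 133 and 114 CPM in WT 1, 2 and 3 and 87.5, 136 and 143 CPM in Het 1, 2 and 3, and so divided the Het libraries as Npc1 did. In Npc1 and Stard4 the high Het libraries were those with the high clock score, whose part was not tested.

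The efflux genes had narrow ranges. Abca1, which loads cholesterol onto apolipoprotein particles, had 173, 175 and 151 CPM in WT 1, 2 and 3 and 117, 169 and 132 CPM in Het 1, 2 and 3. Het 1 and Het 3 were below all WT libraries and Het 2 was within their range, with a log2 fold change of -0.25 (SE 0.15). Abcg5 and Abcg8, the partner half-transporters that secrete sterols into bile, are neighbours on chromosome 17. Abcg5 had 89.3, 109.7 and 96.5 CPM in WT 1, 2 and 3 and 83.4, 100.1 and 103 CPM in Het 1, 2 and 3, and Abcg8 had 91.1, 116 and 112 CPM in WT 1, 2 and 3 and 95.3, 105 and 97.7 CPM in Het 1, 2 and 3. Their genotypes overlapped, with log2 fold changes of -0.045 (SE 0.12) and -0.10 (SE 0.12).

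Of the enzymes that esterify cholesterol, Soat2, the form of hepatocytes, had 33.4, 40.1 and 40.0 CPM in WT 1, 2 and 3 and 43.3, 40.6 and 41.2 CPM in Het 1, 2 and 3. Its genotypes did not overlap, with Het higher by a small margin, and the log2 fold change was 0.14 (SE 0.10). Soat1, the form of macrophages and many other cells, was low, at 5.89 ± 0.997 CPM for WT and 5.44 ± 1.38 CPM for Het (SD, n = 3), with a log2 fold change of -0.11 (SE 0.22).

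**Figure D4:**
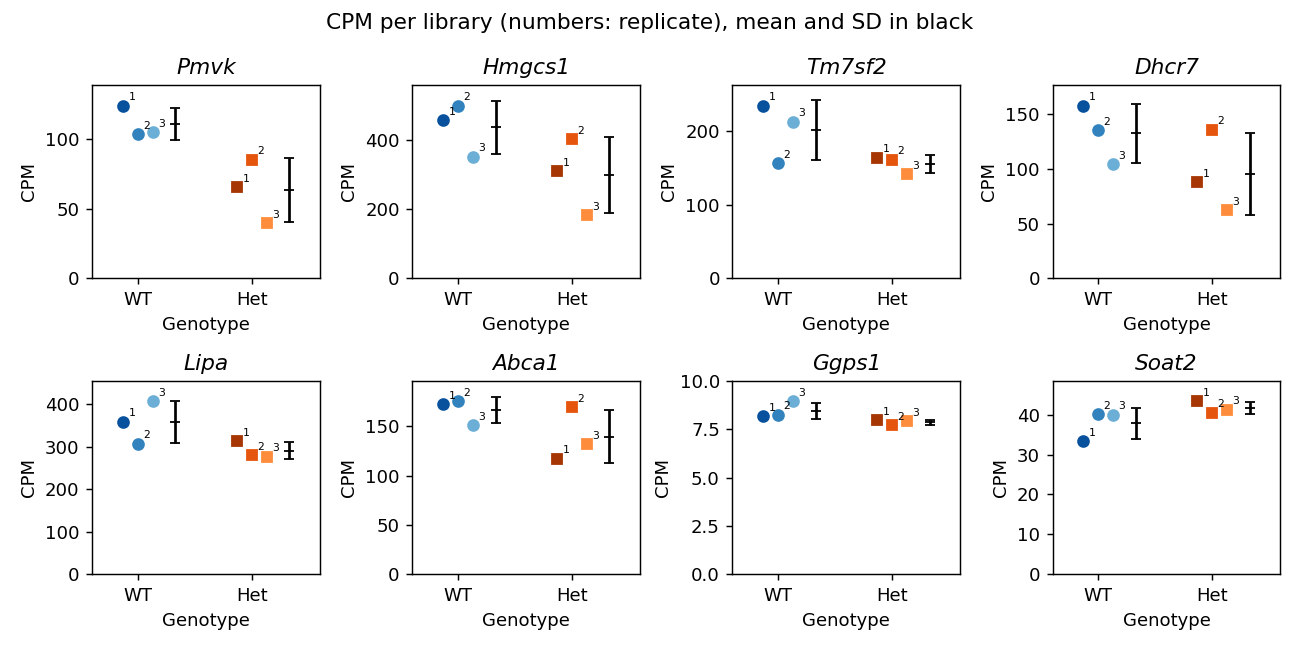
CPM of 8 genes in each library, by genotype, with numbers for replicates and black bars for mean ± SD (n = 3). Pmvk, Ggps1 and Soat2 do not overlap between genotypes, while in Hmgcs1, Dhcr7 and Abca1 Het 2 lies within the WT range.

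Other genes that regulate or branch from the pathway gave a comparison. Of 32 listed, 31 were tested, and 0 had an unadjusted p under 0.05 by edgeR, while DESeq2 gave 1, Lcat, an unadjusted p of 0.0402 (adjusted p 0.623). The genotypes were separated in 3 of the 31, 1 lower (Mbtps2) and 2 higher (Lcat and Nr1h3), where 6.72% and 7.15% of all genes were. Their median log2 fold change was -0.0015, with 16 lower and 15 higher. Srebf2, which encodes SREBP2, had 80.9, 68.2 and 65.4 CPM in WT 1, 2 and 3 and 89.5, 78.0 and 63.1 CPM in Het 1, 2 and 3, with a log2 fold change of 0.10 (SE 0.15), and Scap, its escort protein, had a log2 fold change of -0.0015 (SE 0.11). Nr1h3, which encodes the liver form of LXR, had 122, 117 and 120.4 CPM in WT 1, 2 and 3 and 146, 122 and 123 CPM in Het 1, 2 and 3. These 3 genes were picked with their values in view. The smallest p values belonged to Lcat, which esterifies cholesterol in plasma lipoproteins, and Mbtps2, a protease that releases SREBP from its membrane. Lcat had 484, 442 and 535 CPM in WT 1, 2 and 3 and 677, 547 and 565 CPM in Het 1, 2 and 3, 1.23-fold higher with no overlap. Mbtps2 had 8.07, 7.19 and 7.63 CPM in WT 1, 2 and 3 and 5.02, 7.003 and 6.00 CPM in Het 1, 2 and 3, 1.27-fold lower with no overlap. Their adjusted p values by edgeR were 0.694 and 0.698.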

How the data were processed

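Counts were deposited by the authors as raw reads per Ensembl gene in 1 column per library, per the file headers. The submitters' processing notes list STAR 2.5.3a, HTSeq 0.6.1p1, cutadapt 1.10, DESeq2 1.16.1 and bcl2fastq 2.17.1.14, and mm10 as the build. The strand setting, annotation release and handling of reads with several matches were not given in the sources used here. A further 12 columns of normalized values were not used because their decimal marks were lost, and the authors' table of fold changes was not used. Genes were filtered with filterByExpr, which kept 14606 genes with 99.955% of counts, and scaled by TMM. The quasi-likelihood test of edgeR 4.0.16 (R 4.3.3, two-sided) compared the genotypes with no other term, p values were adjusted by Benjamini-Hochberg over all 14606 genes, and standard errors came from the F statistic. DESeq2 1.42.0, limma-voom (limma 3.58.1), RLE and upper-quartile scaling, 2 other filters (none, or 1 CPM in 3 libraries), the replicate number as a block, a clock covariate and left-out libraries were alternatives. The fit was tested on simulated data. Log2 CPM used a prior count of 2. The genes, steps and lists were chosen with earlier results of these data known, and every library value is given for genes at an unadjusted p under 0.05, genes with separated genotypes and the gene of each step with the largest fold change, as well as others. If libraries of a genotype shared a mouse, p values would measure only technical spread. Exon lengths, overlaps and shared 50-base stretches came from GENCODE M21 (GRCm38).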

Additional observations from a re-analysis of the deposited data

How the results depend on the processing

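Under the 15 alternatives 0 of the 32 genes passed an adjusted p of 0.05 by the tool used, with a smallest adjusted p of 0.0522, for Pmvk, without a filter on low counts. Over all genes edgeR called 0 (1045 at an unadjusted p under 0.05), DESeq2 66, edgeR without a filter 73, and edgeR with 1 library left out 0 to 1 (1 without Het 2). Of the 32, the count lower at an unadjusted p under 0.05 was 3 (3.77% of all genes), and 6 with DESeq2 (3.77%), 10 with no filter (3.33%), 7 with the replicate block (4.31%) and 8 without both Het 2 and Het 3 (8.34%). It was 1 to 11 with 1 library left out: 11 without Het 2 (5.59% of all genes), 6 without WT 3 (3.29%), and 1 without WT 1 (2.51%) or without Het 3 (3.79%). The count higher was 0 to 1 with 1 library left out (1 without Het 1, where 2.87% of all genes were, or without Het 3, where 3.16% were). Genes with separated genotypes numbered 2 to 13 lower and 1 to 3 higher with 1 library left out, where 10% to 13.7% and 11% to 14.1% of all genes were, and 18 lower and 3 higher without both Het 2 and Het 3, where 31.9% and 31.2% of all genes were separated. The median log2 fold change of uptake and lysosomal release was -0.092 once the clock score was a covariate, -0.19 without both Het 2 and Het 3 and -0.10 to 0.024 with 1 library left out. The medians of the mevalonate and sterol stretches were negative in every alternative.

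Of the 32 genes 19 kept their direction in every alternative. With 1 library left out the sign turned in Mvd (-0.20 to 0.21), Fdft1 (-0.20 to 0.14), Sqle (-0.23 to 0.14), Msmo1 (-0.28 to 0.15), Hsd17b7 (-0.55 to 0.012), Lrp1 (-0.077 to 0.035), Mylip (-0.17 to 0.13), Scarb1 (-0.20 to 0.14), Stard4 (-0.10 to 0.22), Abcg5 (-0.11 to 0.045) and Soat1 (-0.28 to 0.084). Elsewhere it turned in Mvd with RLE scaling (0.00010), upper-quartile scaling (0.0022), DESeq2 (0.00067), no filter (0.0036) and the replicate block (0.0085). It turned with limma-voom in Mylip (0.036), Scarb1 (-0.0029) and Stard4 (-0.0027), with the block in Scarb1 (-0.010), with the clock score in Npc1 (-0.092) and Stard4 (-0.29), and without both Het 2 and Het 3 in Lrp1 (0.014), Npc1 (-0.27), Npc2 (0.029) and Stard4 (-0.45). In the fit that keeps 1 Het library, that library is assumed to vary like the others. The cause was not tested.

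The labels give WT and Het libraries the same replicate numbers without saying that a number marks a shared litter or day. Deviations of same-numbered libraries from their group means correlated across genes at -0.068, 0.12 and 0.15, and not every library correlated best with its own number, so the numbers were not taken as pairs. With the replicate block edgeR called 0 genes. Counting error weighs most on genes of few reads, such as Idi1, with 102 to 283 counts per library, and Soat1, with 184 to 493.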

Other observations

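Insig2, an endoplasmic reticulum protein that holds SREBP and Scap back, was chosen after its values were seen. It had 241, 175 and 249.8 CPM in WT 1, 2 and 3 and 243, 115 and 91.2 CPM in Het 1, 2 and 3, so WT 1, WT 3 and Het 1 were high and Het 2 and Het 3 were below all WT libraries. The latter are also the libraries with high Npc1 and Stard4 and a high clock score. Its log2 fold change was -0.57 (SE 0.34), with an adjusted p of 0.74 by edgeR. Het 3 lay below all WT libraries in 18 of the 20 synthesis genes, where 27.3% of all tested genes did in that library. Het 2 lay below them in 3, where 27.2% of all tested genes did. A link between Insig2 and the synthesis genes was not tested.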
